A study of Drosophila melanogaster with 12 samples.

Results

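mir-284 is a miRNA hairpin of Drosophila melanogaster, and its 2 mature products, miR-284-5p and miR-284-3p, were followed here across 12 small RNA libraries from fly heads. They are the rows of the deposited table listed under the hairpin mir-284, which gave 2 of the 403 miRNA rows kept, from 1 of 238 hairpins. The hairpin was chosen by its temperature differences in these same libraries, in which miR-284-5p had higher read levels at warmer temperatures. Differences between temperatures are therefore given below as a description, with no test. Time of day played no part in that choice and was tested.

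The flies were wild-type Canton-S, a common laboratory strain, kept in cycles of light and dark at one of 3 temperatures (18°C, 25°C and also 29°C). Heads were collected at ZT3, ZT9, ZT15 and ZT21, where ZT (Zeitgeber time) counts the hours from lights on, and AGO1 was immunoprecipitated from the head lysates before the small RNAs were sequenced. Each combination of temperature and time point was sequenced once, which made 4 libraries a temperature and 3 a time point. Time points served as the replicates of a temperature in the study, and nothing in the labels says that they came from separate cultures, so the p-values below measure only the spread between these libraries. The study was about how temperature changes the splicing of timeless (tim), a clock gene, and these libraries addressed which miRNAs bound to AGO1 could act on its isoforms and whether their levels depended on temperature.

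A miRNA hairpin is cut out of a longer transcript and trimmed to a short duplex. One strand of that duplex is kept by an Argonaute protein, mostly AGO1 in flies, and guides it to mRNAs that pair with the 5′ end of the miRNA, the seed. The other strand is usually degraded. In Drosophila miR-284 has been studied at the neuromuscular synapse, where it acts on the messages of the glutamate receptor subunits GluRIIA and GluRIIB. The study's target predictions gave both arms candidate sites in the cold-induced isoform tim-cold, and treated miR-284-5p and miR-1005-3p as one seed group.

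The hairpin lies at 3R:12551515-12551614 on the minus strand (build BDGP6.54) and is 100 bases long. The annotated miR-284-5p spans 3R:12551580-12551605, which is 26 bases, and miR-284-3p spans 3R:12551527-12551547, which is 21 bases. The whole hairpin sits inside an annotated 3′ UTR, on the strand of the gene. That gene is Octbeta2R, which encodes a receptor for octopamine, the insect counterpart of noradrenaline, and which is known from work on synaptic growth. Of the 6 annotated Octbeta2R transcripts, 2 have the long 3′ UTR of 2301 bases that holds the hairpin, from 3R:12550625 to 12552925. The hairpin begins 1311 bases into this UTR and ends 890 bases before its end. The other 4 transcripts stop 875 bases short of the hairpin. No other hairpin of the table was annotated within 10 kb, and the nearest, mir-252, was 912605 bases away. Of the 234 hairpins of the table found in the annotation, 13 lay within a 3′ UTR on the strand of the gene.

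The shallowest library, 29°C ZT21, had 4423511 miRNA reads and the deepest, 25°C ZT15, had 16840372. Levels below are normalised read counts, which are the reads of a miRNA divided by 1 size factor per library. They describe miRNA bound to AGO1, relative to the other miRNAs bound to it. The amount of a miRNA in the head and its binding to AGO1 cannot be told apart in these libraries. The heads gave reads of all 8 listed marker miRNAs of neurons, photoreceptors, muscle and ovary. The neuronal markers miR-124-3p and miR-1000-5p summed to 1799.5 to 2494 at 18°C, 2253 to 2601 at 25°C and 2574 to 3542 at 29°C, so that the 29°C sums lay above those of 18°C. The sum follows miR-1000-5p, the more abundant of the pair. miR-124-3p, found throughout the nervous system, went the other way, at 107 ± 26.3 at 29°C and 176 ± 39.1 at 18°C (SD, n = 4 each, log2 difference -0.72, adjusted p = 0.039 with limma). The photoreceptor markers miR-7-5p and miR-210-3p summed to 174930 to 233667 at 18°C, 197198 to 289424 at 25°C and 215276 to 311067 at 29°C, which overlap. The muscle markers miR-1-3p and miR-133-3p together reached 195931 to 486992 at 18°C, 255052 to 666663 at 25°C and 278703 to 526082 at 29°C, ranges that overlap. The ovary markers miR-318-3p and miR-994-5p summed to 152 to 488 at 18°C, to 110 to 223 at 25°C and to 145 to 339 at 29°C. Of the 14 listed miRNAs of testis-biased clusters 13 were in the table, and they summed to only 52.7 to 72.4 at 18°C, 44.9 to 101.7 at 25°C and 105 to 155.5 at 29°C. The 29°C libraries were thus the highest for that list, of which 2 members reached a mean of 10 reads and 0 were at 0 in all libraries. The part of the neuronal and testis-biased lists in the levels of mir-284 was not tested. In whole heads, fewer cells of a type and less miRNA per cell cannot be told apart.

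miR-284-5p, the more abundant arm, was higher at each warmer temperature. At 18°C its level was 10917 at ZT3, 14263 at ZT9, 15362 at ZT15 and 12176 at ZT21. At 25°C it was 22823 at ZT3, 24275 at ZT9, 27892 at ZT15 and 23012 at ZT21. At 29°C it was 35326 at ZT3, 39178 at ZT9, 37754 at ZT15 and 32634 at ZT21. The 3 temperatures did not overlap, since the highest 18°C library lay below the lowest at 25°C, and the highest at 25°C below the lowest at 29°C. The means were 13179 ± 2005 at 18°C, 24500.4 ± 2351 at 25°C and 36223 ± 2873 at 29°C (SD, n = 4 each). The level at 29°C was 2.77-fold that at 18°C, a log2 difference of 1.47 (SE 0.122). It was 1.48-fold that at 25°C (log2 difference 0.57, SE 0.122). The 18°C level was 0.535 times that at 25°C (log2 difference -0.90, SE 0.122). A lack of overlap between 29°C and 18°C, in either direction, occurred for 38.9% of the 244 miRNAs tested. Between 29°C and 25°C the share was 16.8%, and between 18°C and 25°C it was 24.6%. Since these contrasts picked the hairpin, nothing is read from these shares.

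**Figure D1:**
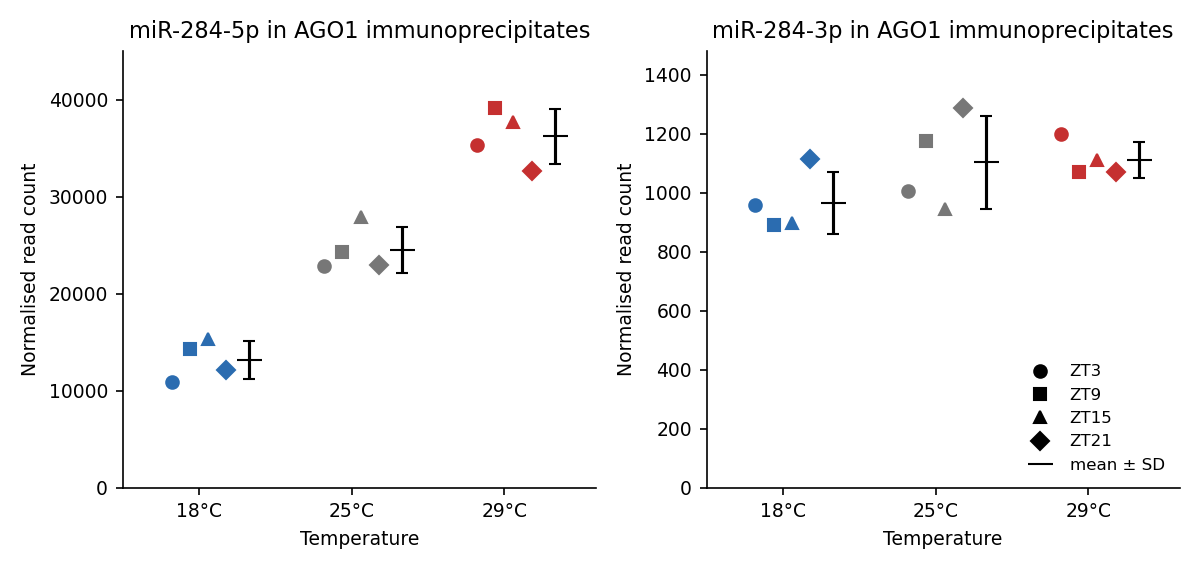
Normalised read count of miR-284-5p (left) and miR-284-3p (right) in AGO1 immunoprecipitates of heads kept at 3 temperatures. Each symbol is 1 library, its shape gives the time point, and the black bar is the mean ± SD of 4 libraries. The 3 temperatures of miR-284-5p stand apart, at means of 13179, 24500.4 and 36223, while those of miR-284-3p overlap between 889 and 1288.

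The step per degree was of like size over both intervals. Between 18°C and 25°C, 7 degrees, the log2 level of miR-284-5p differed by 0.129 per degree (SE 0.0185). Between 25°C and 29°C, 4 degrees, it differed by 0.141 per degree (SE 0.0221). A straight line through all 12 libraries had a slope of 0.133 per degree on the log2 scale (SE 0.00993).

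As a share of all miRNA reads, miR-284-5p held 0.127% ± 0.0159 at 18°C, 0.229% ± 0.0255 at 25°C and 0.326% ± 0.0311 at 29°C (SD, n = 4 each). It ranked between place 40 and place 48 by reads in the 18°C libraries, 32 to 36 at 25°C and 26 to 29 at 29°C. The reads behind these values were 10265 to 45671 per library. At its mean of 25279 reads, counting alone gives an SD of 0.00907 on the log2 scale. The measured SD between libraries of one temperature was 0.164, against a median of 0.214 over the 162 miRNAs with a mean of at least 100 reads. Library-to-library differences, not read number, thus set the precision of this arm.

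miR-284-3p differed little between temperatures. At 18°C its level was 957 at ZT3, 889 at ZT9, 897 at ZT15 and 1116 at ZT21. At 25°C it was 1005 at ZT3, 1177 at ZT9, 944 at ZT15 and 1288 at ZT21. At 29°C it was 1199 at ZT3, 1071 at ZT9, 1113 at ZT15 and 1069 at ZT21. The libraries of every pair of temperatures overlapped, and the highest single value was at 25°C. The means were 965 ± 105 at 18°C, 1104 ± 158 at 25°C and 1113 ± 60.9 at 29°C (SD, n = 4 each). Its log2 difference of 29°C minus 18°C was 0.21, that of 29°C minus 25°C was 0.02 and that of 18°C minus 25°C was -0.19, each with an SE of 0.123. The first of these was 0.11 when libraries were scaled by their total miRNA reads, and the second changed sign under that scaling, to -0.03. The 29°C ZT21 library gave only 419 reads of this arm and the others 640 to 1696.

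The arms were compared within a library by their ratio, which does not depend on how libraries are scaled. Ligation and PCR preferences can differ between 2 sequences, so the ratio itself is a count of reads and not of molecules. There were 10.9 to 17.1 reads of miR-284-5p per read of miR-284-3p at 18°C, 17.9 to 29.5 at 25°C and 29.5 to 36.6 at 29°C. On the log2 scale the ratio of 5p to 3p was 3.51 at ZT3, 4.00 at ZT9, 4.10 at ZT15 and 3.45 at ZT21 at 18°C. At 25°C it was 4.50 at ZT3, 4.36 at ZT9, 4.88 at ZT15 and 4.16 at ZT21. At 29°C it was 4.88 at ZT3, 5.19 at ZT9, 5.08 at ZT15 and 4.93 at ZT21. The 18°C libraries lay below all others, and the 25°C ZT15 library (29.5 reads per read, just above the lowest 29°C library) reached into the range of 29°C. The means were 3.76 ± 0.332 at 18°C, 4.48 ± 0.306 at 25°C and 5.02 ± 0.143 at 29°C (SD, n = 4 each). The difference was 1.26 for 29°C minus 18°C (SE 0.196), 0.54 for 29°C minus 25°C and -0.71 for 18°C minus 25°C. Arm ratios without overlap between 29°C and 18°C occurred for 41.6% of 89 hairpins, those whose arms each averaged 10 reads or more. That share was not taken for the other pairs of temperatures. There, limma called 22 of the 89 ratios for 18°C minus 25°C and 15 for 29°C minus 25°C at an adjusted p under 0.05. Among those 89 the 29°C minus 18°C difference of mir-284 was the 6th highest toward the 5p arm and 13th by absolute size. Since the same contrasts picked the hairpin, nothing is read from these shares and ranks.

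**Figure D2:**
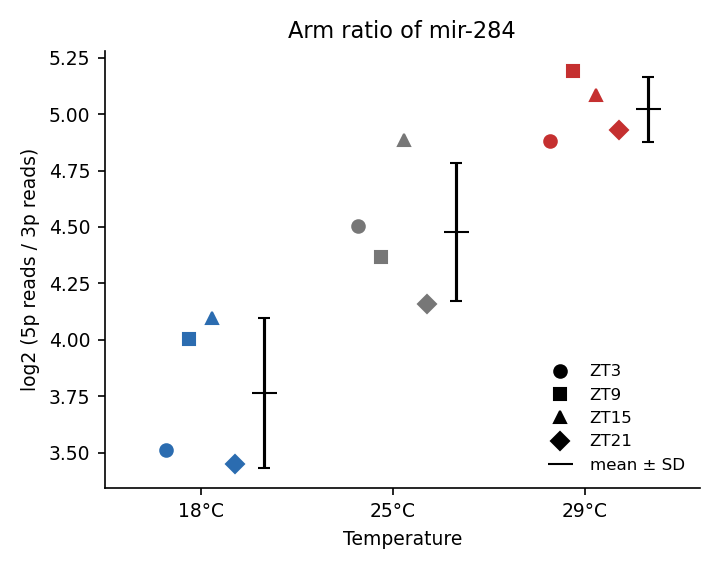
Ratio of miR-284-5p reads to miR-284-3p reads on the log2 scale at each temperature. Each symbol is 1 library, its shape gives the time point, and the black bar is the mean ± SD of 4 libraries. The means are 3.76, 4.48 and 5.02, and the 25°C ZT15 library lies just above the lowest 29°C library, both at 4.88.

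Set against the other miRNAs in AGO1, miR-284-5p combined a large difference with many reads. Among the 244 miRNAs tested it had the 9th highest log2 difference of 29°C minus 18°C, where the median of all was -0.03. Among the 162 with a mean of at least 100 reads it was 3rd, after miR-4919-3p (2.25) and miR-92b-3p (1.60). Among the 50 with a mean of at least 10000 reads it was 1st, before miR-33-5p (1.24), which lies in an intron of the sterol regulator SREBP, and miR-283-5p (0.75). miR-284-3p was 88th of the 244. The limit of 10000 reads was not set beforehand. Since the hairpin was chosen by its temperature differences, a high place of miR-284-5p follows from the choice, and nothing is read from these ranks. Between the same temperatures 16.0% of the 244 passed an adjusted p under 0.05 (limma, Benjamini-Hochberg) with an absolute log2 difference over 1, made up of 6.15% of the 244 that were higher and 9.84% that were lower at 29°C.

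**Figure D3:**
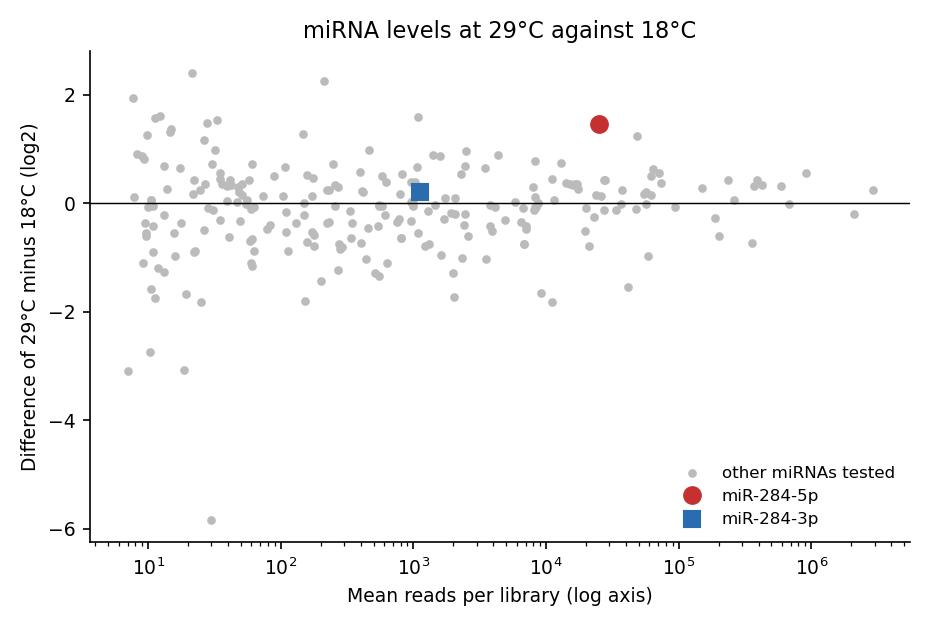
Log2 difference of 29°C minus 18°C against the mean reads per library (log axis) for the 244 miRNAs tested. Grey points are other miRNAs, the red circle is miR-284-5p at 1.47 and the blue square is miR-284-3p at 0.21. At over 10000 mean reads no point lies above miR-284-5p, whose hairpin was chosen by its temperature differences.

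The miRNAs whose level followed miR-284-5p most closely were found by Pearson's r of log2 levels over the 12 libraries, among 157 other miRNAs with a mean of at least 100 reads, each mature name counted once (the 162 above are rows, in which 4 names stand under 2 hairpins each). The closest was miR-4919-3p (r = 0.93), with means of 84.4 ± 10.2 at 18°C, of 155 ± 24.4 at 25°C and of 409 ± 76.0 at 29°C (SD, n = 4 each). Next came miR-1017-3p (r = 0.92), a miRNA made from a spliced intron, with means of 2865 ± 241 at 18°C, of 4287 ± 299 at 25°C and of 5324 ± 728 at 29°C. The others were miR-33-5p (r = 0.92), miR-92b-3p (r = 0.92) and miR-2535b-3p (r = 0.91). Being picked for this likeness, the 5 had to share the temperature steps of miR-284-5p, and nothing is read from that. By Spearman's rho miR-92b-3p was 6th and the other 4 stayed among the first 5. These coefficients include the steps between temperatures, which all points of one temperature share, and carry no p. miR-284-3p came 54th by rho (r = 0.45, rho = 0.37).

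**Figure D4:**
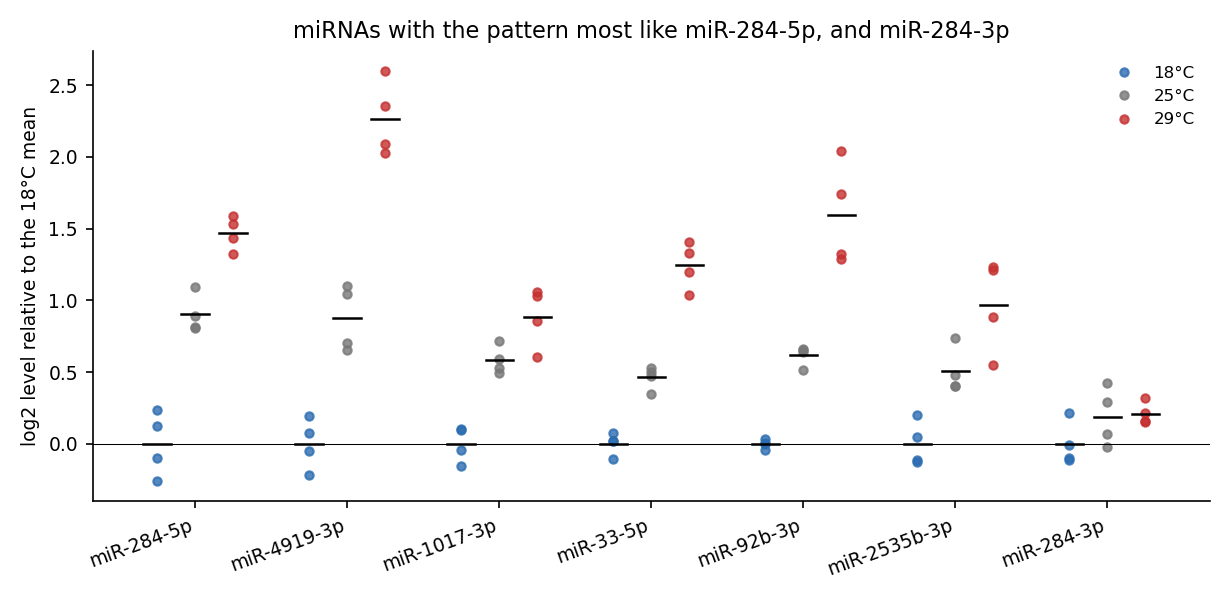
Log2 level relative to the 18°C mean for miR-284-5p, the 5 miRNAs whose pattern over the 12 libraries was most like it, and miR-284-3p. Points are libraries coloured by temperature and the black bars are means of 4 libraries. miR-284-5p and the 5 others step up at 25°C and again at 29°C, and miR-284-3p stays within 0.5 of its 18°C mean.

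Once the temperature means were taken away, the likeness changed. The deviations of miR-284-5p from its temperature means were most like those of miR-1004-5p (r = 0.75, rho = 0.74, 12 libraries), which was highest at ZT15 at 18°C (1073) and 25°C (2096) and at ZT9 at 29°C (1863). This was the highest r of 157 candidates over 12 libraries, so its size and the shared time points follow in part from the choice, and nothing is read from them. The next 4 were miR-318-3p, miR-263a-5p, miR-375-3p and miR-4951-5p, with r from 0.53 down to 0.49. The other arm of the hairpin did not follow it, with r = -0.48 and rho = -0.41 between the deviations of miR-284-5p and miR-284-3p, which had the same sign in 4 of 12 libraries.

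miR-1005-3p, placed in one seed group with miR-284-5p by the study's predictions and named here after its values were seen, was hardly present. It had 14 reads in all at 18°C, 9 at 25°C and 4 at 29°C, from 0 to 6 reads in a library. Nearly all reads of the pair were thus miR-284-5p at each temperature.

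Time of day was tested with temperature as a covariate, as 3 coefficients for the 4 time points. miR-284-5p lay above its temperature mean at ZT15 at all 3 temperatures, by 0.23 at 18°C, 0.19 at 25°C and 0.06 at 29°C on the log2 scale. At ZT21 it lay below at all 3, deviating by -0.10 at 18°C, by -0.09 at 25°C and by -0.15 at 29°C. It lay below its temperature mean at ZT3 as well. Its highest library was that of ZT15 at 18°C and 25°C and that of ZT9 at 29°C. These differences did not pass the test (unadjusted p = 0.0719, adjusted p = 0.863 with limma over 252 miRNAs). For miR-284-3p, which was highest at ZT21 at 18°C and 25°C and at ZT3 at 29°C, the adjusted p was also 0.863. The arm ratio was above its temperature mean at ZT15 at all 3 temperatures, by 0.33, 0.41 and 0.06 from cold to warm, and below it at ZT21 at all 3, with deviations of -0.32, -0.32 and -0.09 (unadjusted p = 0.0739, adjusted p = 0.56 with limma over 89 hairpins). At an adjusted p under 0.05, time of day called 0.0% of the 252 miRNAs and 0.0% of the 89 arm ratios, with 12 miRNAs and 6 ratios at an unadjusted p under 0.05. edgeR called 0 miRNAs and DESeq2 called 1, which was neither arm of mir-284. Without the 18°C ZT21 library limma called 23 miRNAs and 4 arm ratios, and the adjusted p was 0.221 for miR-284-5p and 0.25 for its arm ratio.

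**Figure D5:**
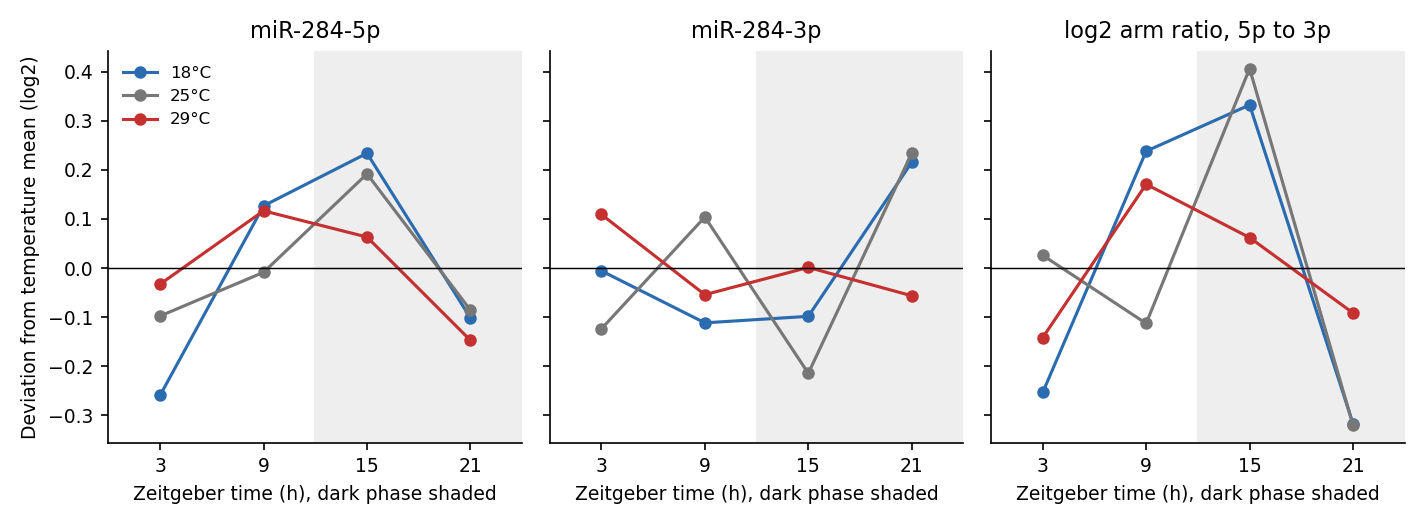
Deviation from the mean of the same temperature (log2) at ZT3, ZT9, ZT15 and ZT21 for miR-284-5p, miR-284-3p and the log2 arm ratio. Each point is 1 library, lines join the libraries of one temperature, and the dark phase is shaded. The 3 lines of miR-284-5p and of the arm ratio are above 0 at ZT15 and below 0 at ZT21, and the time of day test was not passed.

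Dark libraries (ZT15 and ZT21) were also compared with light ones (ZT3 and ZT9). miR-284-5p averaged 14.49 in the dark and 14.44 in the light on the log2 scale, a difference of 0.05 (SE 0.105, 95% interval -0.17 to 0.28, adjusted p = 0.995 with limma). For miR-284-3p the averages were 10.06 in the dark and 10.03 in the light, a difference of 0.03 (SE 0.106, 95% interval -0.20 to 0.26, adjusted p = 0.995 with limma). The arm ratio averaged 4.43 in the dark and 4.41 in the light, a difference of 0.02 (95% interval -0.33 to 0.38, adjusted p = 0.98 with limma). No difference between dark and light was thus detectable, and for the single arms the intervals leave room for differences of up to about 0.28 on the log2 scale. For miR-284-5p the dark phase pools ZT15 (mean deviation 0.16) with ZT21 (-0.11), and the light phase pools ZT9 (0.08) with ZT3 (-0.13). A daily pattern of that shape largely cancels between dark and light, so this comparison does not bear on it. Exact two-sided permutation tests of phase within temperatures, over 216 arrangements with a smallest possible p of 0.00926, gave p = 0.583 for miR-284-5p, 0.768 for miR-284-3p and 0.898 for the ratio. The comparison called 0.0% of 235 miRNAs (5 at an unadjusted p under 0.05, 0 with edgeR and 1 with DESeq2) and 0.0% of 89 ratios (6 at an unadjusted p under 0.05).

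A change of the dark and light difference with temperature was tested through 2 interaction coefficients. For miR-284-5p dark minus light came to 0.13 in the 18°C libraries, to 0.11 at 25°C and to -0.08 at 29°C. For miR-284-3p the differences of dark minus light were 0.12 at 18°C, 0.02 at 25°C and -0.06 at 29°C. Neither arm passed the test (adjusted p = 0.834 for miR-284-5p and 0.893 for miR-284-3p with limma), and it called 0.0% of 244 miRNAs, with 9 at an unadjusted p under 0.05 and 0 with edgeR or DESeq2. With 1 library per combination, an interaction of the full design could not be fitted.

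Lists of other miRNAs known from the fly synapse and from ageing give the setting of these values, and since mir-284 was chosen by its difference, no comparison of size with them is drawn. Of 11 miRNAs studied in synapse growth or transmission, 10 were tested between 29°C and 18°C, and 0 passed both thresholds in either direction, beside 16.0% of all 244, and so small a list is not told apart from that share. Their median log2 difference was 0.25, beside -0.03 over all miRNAs tested. It rests in part on miR-310-3p, miR-311-3p and miR-312-3p, with means of 17.3 to 34.7 reads and SEs of 0.71 to 0.78. Single values ran from -0.74 to 0.70. The highest was that of miR-1000-5p, which acts on the vesicular glutamate transporter, at 3013 ± 453 at 29°C and 1860 ± 320 at 18°C (SD, n = 4 each, adjusted p = 0.000914 with limma). The lowest was that of miR-34-5p, a regulator of ageing in the fly brain, at 277672 ± 31568 at 29°C and 463246 ± 54981 at 18°C (adjusted p = 0.000275 with limma). Of 7 miRNAs studied in ageing or lifespan, 7 were tested and 0 passed both thresholds, again beside 16.0% of all, with a median log2 difference of 0.18. Single values of that list ran from -0.74, that of miR-34-5p again, to 0.50. The highest was that of miR-100-5p, from the let-7 complex, at 69060.5 ± 7925 at 29°C and 48514 ± 3008 at 18°C (adjusted p = 0.00254 with limma). The lists share miR-34-5p, let-7-5p and miR-125-5p, so their medians are not independent. At an adjusted p under 0.05 alone, 39.8% of the 244 were called, and 4 of 10 of the synapse list and 2 of 7 of the ageing list.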

How the data were processed

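Small RNAs from AGO1 immunoprecipitates of Canton-S heads were sequenced after NEBNext library preparation. The authors assigned reads to mature miRNAs of miRBase 21 with miRExpress, and trimming and read length limits are not given in the sources used here. The deposited values are a signal, reads divided by 1 size factor per library. Whole reads were recovered for 100% of 4896 values (within 0.01 of a whole number). Of 408 rows, 5 that repeated another row were left out, which left 403. No pair of libraries agreed within sampling noise (lowest chi-square per degree of freedom 213 over 18 pairs).

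Levels were tested as log2(value + 1) with limma 3.58.1 in R 4.3.3 (trend, robust) on all miRNAs that passed filterByExpr, with Benjamini-Hochberg adjustment. The pseudocount of 1 understates changes of low miRNAs. A call between temperatures needed an adjusted p under 0.05 and an absolute log2 difference over 1. For the ratio of arms, 0.5 was added to the reads of each before taking log2. Scripts were tested on simulated data. edgeR 4.0.16 (TMM) and DESeq2 1.42.0 on recovered reads were alternatives, as were other pseudocounts, scalings and filters, and leaving out each library.

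By a rule set beforehand, the miRNAs named are the arms of mir-284, the 5 most like miR-284-5p by Pearson's r of levels and the 5 by r of deviations (mean of at least 100 reads), hairpins within 10 kb, and list members given as examples. Also named are the marker miRNAs, the nearest hairpin and those ranked beside miR-284-5p by difference. miR-1005-3p and the called arms of other 3′ UTR hairpins were named after their values were seen. The hairpin and the lists were chosen with earlier results of these data known. The synapse list held miR-8-3p, miR-124-3p, miR-1000-5p, miR-34-5p, let-7-5p, miR-125-5p, miR-276a-3p, miR-310-3p, miR-311-3p, miR-312-3p and miR-313-3p. The ageing list held miR-34-5p, miR-277-3p, let-7-5p, miR-100-5p, miR-125-5p, miR-14-3p and miR-305-5p. Coordinates are from the Ensembl annotation of BDGP6.54, since the table holds none. Sequences, and with them seeds and target sites, were not analysed here. Intervals and read numbers cover counting error only where they rest on counts, since no molecular identifiers are described.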

Additional observations from a re-analysis of the deposited data

How the results depend on the processing

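The temperature differences of miR-284-5p kept their sign and moved by less than the spread between libraries under all 23 alternatives each. Leaving out 1 library gave 1.38 to 1.55 for 29°C minus 18°C, and scaling by total miRNA reads gave 1.37. The 29°C minus 25°C difference of miR-284-3p, 0.02, changed sign with scaling by total miRNA reads (-0.0300) and lay between -0.0504 and 0.0989 when 1 library was left out. For dark minus light, leaving out 1 library gave -0.0068 to 0.095 for miR-284-5p, -0.028 to 0.084 for miR-284-3p and -0.074 to 0.11 for the arm ratio, so these small differences have no stable sign. No alternative brought a test of time of day or phase for either arm or the ratio, or of the interaction for either arm, under an adjusted p of 0.05. The lowest was 0.221, for time of day of miR-284-5p without the 18°C ZT21 library. Of 345 alternative values for mir-284, 331 were classed as the same and 14 changed sign. For a temperature difference, the same meant an unchanged sign and a move smaller than the spread between libraries. For a test it meant the same side of 0.05, with the sign kept where the test has one. The count of miRNAs called between 29°C and 18°C was 39, and 18 with a mean of at least 100 reads. The count called for time of day was 0, and 23 without the 18°C ZT21 library and 1 without the 29°C ZT21 library. For arm ratios it was 0, and 4 and 2 without the same libraries. The cause was not tested. When the time point entered as a replicate block, the temperature differences were unchanged by construction (1.47 for miR-284-5p, 0.21 for miR-284-3p and 1.26 for the ratio, 29°C minus 18°C), and no other result of mir-284 has such a fit. Over all miRNAs, libraries of the same time point did not deviate together at all 3 temperatures, so the block was not used. Their correlations ran from -0.465 to 0.445 over 12 pairs, and the 4 over 0.1 were all between 25°C and 29°C (0.226 to 0.445). Between 18°C and 25°C they were all negative (-0.465 to -0.197). Pairs of unlike time points ran from -0.586 to 0.644. The time of day test takes 1 pattern shared by all temperatures, and a pattern timed otherwise at 18°C was not tested. For miR-284-5p alone the deviations had one sign at ZT3, ZT15 and ZT21, and the block lowered the SE of its differences to 0.10, against 0.122 without it (ratio 0.160, against 0.196). The counting SD of miR-284-3p was at most 0.0705 on the log2 scale, in the 29°C ZT21 library with 419 reads, below its spread of 0.154 between libraries.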

Other observations

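mir-284 is 1 of 13 hairpins of the table that lie within an annotated 3′ UTR on the strand of the gene. The other 12 were looked at after the values had been seen, so no test was made. Of the 10 with a tested arm, 6 had an arm called between 29°C and 18°C, or 60%, and of the 145 remaining hairpins 31 did, or 21.4%. Unlike miR-284-5p, most of these arms were lower at 29°C than at 18°C. The called arms were miR-1001-3p (log2 difference of 29°C minus 18°C -1.10), miR-1001-5p (-1.10), miR-4940-5p (-2.74), miR-9370-5p (-1.82), miR-9371-5p (-3.07), miR-9372-3p (-5.84) and miR-92b-3p (1.60), with adjusted p-values of limma from 5.4e-07 to 0.0019. Only miR-92b-3p, from the 3′ UTR of jigr1, shared the direction of miR-284-5p. Of these, miR-4940-5p, miR-9370-5p, miR-9371-5p and miR-9372-3p had means of 10.3 to 30 reads, so their differences rest on few reads. The shares of 60% and 21.4% were not matched for read number, and nothing is read from their difference.

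No value of miR-284-5p, miR-284-3p or the arm ratio stood apart from the other libraries of its temperature by Dixon's ratio, in 9 groups of 4 libraries searched.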
